A study of Mus musculus with 54 samples.

Results

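Megalin and cubilin are the large receptors that early proximal tubule cells use to take filtered proteins back from the tubule fluid, and the genes described here encode both receptors and the proteins that carry them through the cell. The 9 genes Lrp2, Cubn, Amn, Lrpap1, Dab2, Ocrl, Clcn5, Fcgrt and Rab11a were taken by gene name from the 55487 rows of the deposited expression table, and all 9 were found. All 9 passed the filter on low values that left 12742 genes for testing (a level of at least 1 TPM in at least 5 samples). TPM is a length-corrected share of transcripts in which every library has the same sum.

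The study compared tubules from DBA male mice at 14 weeks of age after 2 weeks of treatment. Tubules positive for SGLT2, the glucose transporter encoded by Slc5a2, were cut out by laser capture, 70 to 80 per sample, and their total RNA was sequenced. Non-diabetic mice (Ins2+/+) and diabetic littermates carrying the Ins2 Akita/+ mutation, which leads to loss of insulin-producing cells, each had either Sglt1 WT (wild type) or Sglt1 KO (knockout) alleles. Vehicle or dapagliflozin, an inhibitor of SGLT2, at 10 mg/kg of diet was given on each of these 4 backgrounds. Semaglutide, an agonist of the GLP-1 receptor, at 3 nmol/kg of body weight per day under the skin was given to Akita wild-type mice. These 9 groups had 54 labelled samples, of which 48 had values in the table. There were 5 non-diabetic wild-type vehicle, 5 non-diabetic knockout vehicle, 4 non-diabetic wild-type dapagliflozin, 6 non-diabetic knockout dapagliflozin, 6 Akita wild-type vehicle, 6 Akita knockout vehicle, 5 Akita wild-type dapagliflozin, 6 Akita knockout dapagliflozin and 5 Akita wild-type semaglutide samples. No label says which animal a sample came from, so p-values measure only the spread between samples, which can hold a technical part, and where an animal gave several samples they come out too small.

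Megalin (Lrp2) and cubilin (Cubn) sit on the brush border. Cubilin has no membrane-spanning part and reaches the surface bound to amnionless (Amn), while megalin needs the chaperone RAP (Lrpap1) to fold. The adaptor Dab2 links the receptor tails to clathrin-coated pits. In the endosome, the lipid phosphatase OCRL and the chloride-proton exchanger ClC-5 (Clcn5) act in receptor traffic and acidification, and their loss in people causes Lowe syndrome and Dent disease, in which low-molecular-weight proteins appear in the urine. The neonatal Fc receptor (Fcgrt), which pairs with beta-2-microglobulin (B2m), diverts albumin and IgG from degradation, and the small GTPase Rab11a marks recycling endosomes.

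The promoters of both receptors and of amnionless are shown because Lrp2 and Cubn varied together across the libraries whereas Amn did not vary closely with either. Many other genes also varied with Lrp2, and Cubn came at rank 102 of 2261 genes by its correlation with Lrp2 on TPM. The sequences are RefSeq promoter windows of build GRCm38.p6, 5′ to 3′ on the strand of the gene, cut so that they end before the first base of the annotated gene. They cover chr2:69586066-69586279 (minus strand) for Lrp2, chr2:13491877-13492126 (minus strand) for Cubn and chr12:111270846-111271094 (plus strand) for Amn. Capitals mark a GC box (GGGCGG or its reverse complement) or the E-box CACGTG.
Lrp2: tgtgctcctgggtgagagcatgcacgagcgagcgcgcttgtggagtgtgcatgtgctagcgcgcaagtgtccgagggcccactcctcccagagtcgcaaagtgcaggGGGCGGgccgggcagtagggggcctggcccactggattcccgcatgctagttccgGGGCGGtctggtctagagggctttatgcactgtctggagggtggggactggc
Cubn: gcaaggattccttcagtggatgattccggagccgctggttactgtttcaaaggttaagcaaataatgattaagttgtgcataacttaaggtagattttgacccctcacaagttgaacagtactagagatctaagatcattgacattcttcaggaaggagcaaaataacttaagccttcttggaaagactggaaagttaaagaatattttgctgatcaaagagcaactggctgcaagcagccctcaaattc
Amn: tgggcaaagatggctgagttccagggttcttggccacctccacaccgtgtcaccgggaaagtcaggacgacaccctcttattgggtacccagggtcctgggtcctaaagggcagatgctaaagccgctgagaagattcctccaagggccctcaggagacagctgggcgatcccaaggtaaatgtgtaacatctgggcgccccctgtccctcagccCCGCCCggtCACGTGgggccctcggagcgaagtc

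The search covered both strands of the 250 bases upstream of each RefSeq start, from which positions are counted, for the GC box GGGCGG, the E-box CACGTG, the HNF1 half-site GTTAAT, the nuclear receptor half-site AGGTCA and the TATA box TATAAA. The Lrp2 promoter held GGGCGG 143 and 88 bases upstream of its start. The Amn promoter held CCGCCC 35 bases and CACGTG 26 bases upstream. None of the 5 motifs was in the Cubn window, which was also poor in G and C (39.6% of its 250 bases, against 66.4% in Lrp2 and 61.2% in Amn). Of 32851 promoters, 32.7% held GGGCGG, 6.02% CACGTG, 6.43% GTTAAT, 14.02% AGGTCA and 12.4% TATAAA, so that the matches in Lrp2 and Amn are letters found in many promoters. The Lrp2 gene spans 69424340 to 69586065 of chromosome 2 with 79 exons in its longest coding transcript, Cubn spans 13276338 to 13491813 of the same chromosome with 67 exons, and Amn is a short gene at 111271095 to 111276426 of chromosome 12 with 12 exons (GENCODE, GRCm38).

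All 9 genes were at 1 TPM or more in 48 of 48 libraries. Megalin had the highest level, with a mean of 121.7 TPM ± 35.2 (SD, n = 48), which placed Lrp2 at rank 73 of 10402 tested protein-coding genes. The adaptor Dab2 followed at 87.7 TPM ± 24.4 and the chaperone Lrpap1 at 74.97 TPM ± 18.9. Amnionless and its partner cubilin lay lower and close to each other, Amn at 30.7 TPM ± 7.31 and Cubn at 24.7 TPM ± 7.25, and Amn was the higher of the pair in 36 of 48 libraries. Rab11a reached 15.6 TPM ± 4.74, Fcgrt 10.98 TPM ± 3.03, Clcn5 6.45 TPM ± 2.20 and Ocrl 2.45 TPM ± 0.912. Lrp2 was above Dab2, Lrpap1 above Amn, Fcgrt above Clcn5 and Clcn5 above Ocrl in every library, while Dab2 was above Lrpap1 in 35 of 48.

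The labels and the tubule origin were checked on other genes. Slc5a1, the gene deleted in the knockout, was at 0.814 to 4.29 TPM in the 25 wild-type libraries and at 0.0 to 0.123 TPM in the 23 knockout libraries. The 10 early proximal tubule markers summed to 1122 to 2798 TPM per library, against 19.1 to 115.8 TPM for 5 late proximal tubule markers, 10.3 to 146.9 TPM for 6 thick ascending limb markers, 13.4 to 257.9 TPM for 13 distal and collecting duct markers, 21.2 to 108.4 TPM for 10 endothelial markers and 10.2 to 35.7 TPM for 8 podocyte markers. The 10 macrophage and leukocyte markers summed to 5.37 to 186.6 TPM, of which Cd74 made up most with a mean of 25.3 TPM, the 9 fibroblast and mural markers to 2.22 to 72.7 TPM and the 5 red cell markers to 0.0 to 20.1 TPM. Libraries held 8465 to 11419 genes at 1 TPM or more, and 4 of them, 2 from each genotype of the Akita vehicle mice, held fewer than 9000. Protein-coding genes, counted without Lars2 and called nuclear here, took 6.51% to 15.7% of a library's TPM. TPM keeps no sequencing depth, so no counting error can be given. In such samples a lower level can mean less RNA per cell or fewer cells of the type, which cannot be told apart.

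**Figure D1:**
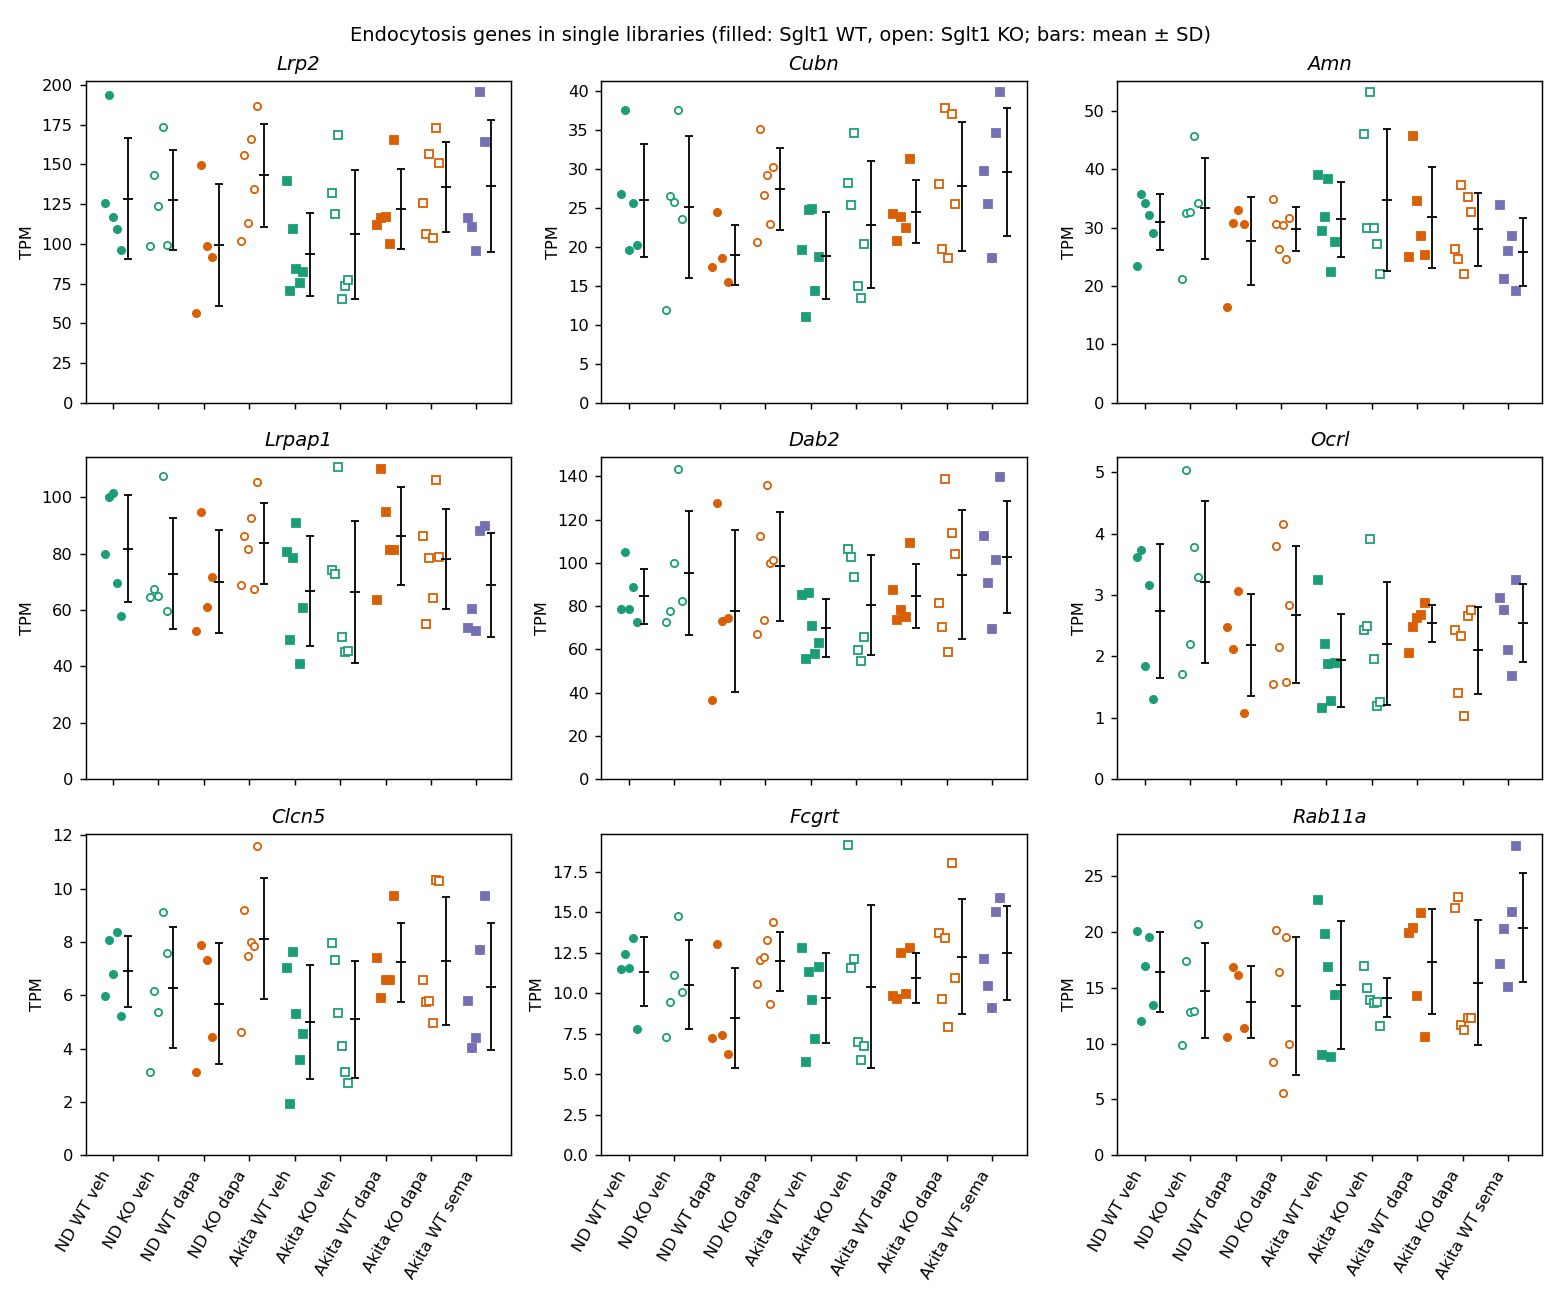
TPM of the 9 endocytosis genes (vertical axes, each from 0) in the 48 libraries by group (horizontal axis; ND, non-diabetic; veh, vehicle; dapa, dapagliflozin; sema, semaglutide). Points are libraries, filled for Sglt1 wild type and open for knockout, and bars give the mean ± SD. Lrp2 means lie between 93.6 and 143 TPM. In each of the 10 comparisons between groups the libraries of both groups overlap for every gene shown. Of all tested genes, at most 0.981% were higher and at most 0.942% lower without overlap in a comparison, so this overlap is no result about the 9 genes.

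Across the groups, the mean of Lrp2 ran from 93.6 TPM in Akita wild-type vehicle to 143 TPM in non-diabetic knockout dapagliflozin, a ratio of 1.53. Cubn ran from 18.9 TPM in the same Akita group to 29.6 TPM with semaglutide, a ratio of 1.57. The ratio of the highest to the lowest group mean was 1.65 for Ocrl, 1.62 for Clcn5, 1.53 for Rab11a, 1.47 for Dab2 and for Fcgrt, 1.35 for Amn and 1.30 for Lrpap1. When each gene's groups were put in order of their means, the widest gap between neighbours was 0.63 of the larger of their SDs (Rab11a), and for the other genes at most 0.47 of it (Cubn). With 9 groups in order such gaps are small by construction. The highest and lowest groups lay further apart than the larger of their SDs for Lrp2 (32.5 and 26.1 TPM) and Cubn (8.20 and 5.54 TPM). The same held for Dab2, Clcn5, Fcgrt and Rab11a, but not for Amn, Ocrl and Lrpap1.

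The test of each comparison was limma on log2(TPM + 1) over all 9 groups, adjusted by the Benjamini-Hochberg method over the 12742 genes, with a call at an adjusted p under 0.05. None of the 9 genes was called in any of the 16 comparisons. For diabetes, 0.0235% of all genes were called in wild type, 0.0% in knockout and 0.557% averaged over both. For loss of Sglt1 the share was 0.0235% in non-diabetic mice, 0.0157% in Akita mice and 0.0235% over the 4 backgrounds. Dapagliflozin gave 0.0% in non-diabetic wild type, 0.00785% in non-diabetic knockout, 0.0% in Akita wild type, 0.0% in Akita knockout and 0.816% averaged over the Akita genotypes. Semaglutide gave 0.0% against vehicle and 0.0% against dapagliflozin, and each of the 3 interactions gave 0.0%. With shares this low over all genes, the absence of calls is no result about the 9 genes. At an unadjusted p under 0.05, limma marked 3 of 9 genes for semaglutide, where 5.82% of all genes were marked. It marked 2 of 9 for diabetes averaged over genotypes (18.5% of all genes), 4 of 9 for dapagliflozin in Akita mice averaged over genotypes (17.5%), 3 of 9 for the interaction between dapagliflozin and diabetes in wild type (11.2%) and none in the other comparisons. Most of the 9 genes vary together on TPM, Amn and Rab11a least, so these counts are not of independent genes.

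Scaling bears on every direction below. On deposited TPM the median of all tested genes itself differed between groups, by -0.15 for diabetes in wild type, -0.24 for diabetes in knockout, 0.19 and 0.15 for dapagliflozin in Akita wild type and knockout, -0.13 for dapagliflozin in non-diabetic wild type, 0.13 for semaglutide and 0.32 for the dapagliflozin by diabetes interaction in wild type (log2). Median-of-ratios scaling, which divides each library by a factor from the genes all libraries share, removes this shift, and values called scaled below are those under it.

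In wild-type mice on vehicle, none of the 9 genes passed the test for diabetes, and both receptors had lower mean levels in Akita than in non-diabetic tubules. Lrp2 was at 126, 193, 117, 109 and 96.5 TPM in the 5 non-diabetic vehicle libraries, and at 70.3 TPM at the lowest, 83.4 TPM at the median and 139 TPM at the highest of the 6 Akita vehicle libraries. The groups overlapped, with 5 of 6 Akita libraries below the non-diabetic median. The log2 difference was -0.45 ± 0.24 (SE; limma adjusted p = 0.676), and -0.23 after median-of-ratios scaling. Cubn was at 26.7, 37.5, 19.6, 25.7 and 20.3 TPM without diabetes and at 10.97 to 24.8 TPM with it, with 6 of 6 Akita libraries below the non-diabetic median and the groups overlapping. Its log2 difference was -0.45 ± 0.24 (limma adjusted p = 0.679), and -0.24 after scaling. The coupled gene Amn differed by 0.01 ± 0.21, so the 95% interval of its log2 difference, -0.41 to 0.43, held changes of either sign, and after scaling it was 0.23. The endosomal genes Clcn5 (-0.47 ± 0.27) and Ocrl (-0.33 ± 0.24), the chaperone Lrpap1 (-0.31 ± 0.22) and the adaptor Dab2 (-0.29 ± 0.24) had values on the same side as the receptors on TPM, and the median of the 9 genes was -0.31, beside -0.15 over all genes. Scaled, Clcn5 was at -0.29, Ocrl at -0.18, Lrpap1 at -0.09, Dab2 at -0.06 and the median of the 9 genes at -0.09. Without non-diabetic wild-type vehicle replicate 3, the library at 193 TPM, the Lrp2 value on TPM was -0.29.

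In the knockout the diabetic difference was -0.32 ± 0.24 for Lrp2 and -0.12 ± 0.24 for Cubn, and after median-of-ratios scaling both were above 0, at 0.03 and 0.22. The test of whether diabetes acted differently by genotype gave 0.13 ± 0.34 for Lrp2 and 0.33 ± 0.34 for Cubn (limma adjusted p = 1.0 for both), and scaled 0.26 and 0.45. Averaged over genotypes, Lrp2 differed by -0.39 ± 0.17 (limma adjusted p = 0.215) and Ocrl by -0.36 ± 0.17 (limma adjusted p = 0.241). The Lrp2 value came to -0.10 after median-of-ratios scaling and to -0.21 without the 4 libraries with few genes, all of which were Akita vehicle. Late proximal tubule markers were also lower in Akita mice on TPM. In wild-type vehicle the 5 genes summed to 57.99 to 104.7 TPM without diabetes and to 19.1 to 60.3 TPM with it. In knockout vehicle these ranges overlapped more, at 45.6 to 102.1 TPM without diabetes and 27.0 to 91.4 TPM with it. Slc7a13 and Slco1a1 made up most of these sums, with means of 32.6 and 29.9 TPM over all libraries. The calls on both genes are therefore not separate from the sums. Of these markers, Slc7a13 (-0.87) and Slco1a1 (-1.14) were called lower over both genotypes on TPM (limma adjusted p = 0.0488 and 0.0255). Their part in the Lrp2 and Cubn values was not tested.

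For loss of Sglt1, the second glucose transporter of the proximal tubule, the log2 differences of the 9 genes had either sign. In non-diabetic mice the log2 difference of Lrp2 was 0.00 ± 0.25, with a 95% interval from -0.50 to 0.50, and those of the other genes lay between -0.17 (Lrpap1) and 0.17 (Ocrl). Scaled, Lrp2 was at -0.13, Lrpap1 at -0.30 and Ocrl at 0.07. In Akita mice Cubn stood at 0.24 ± 0.23 and Lrp2 at 0.13 ± 0.23, and scaled at 0.23 and 0.12. Averaged over the 4 backgrounds, Lrp2 was at 0.21 ± 0.12 (95% interval -0.03 to 0.46), Dab2 at 0.21 ± 0.12 and Cubn at 0.20 ± 0.12 (limma adjusted p = 0.921 for each), and 7 of 9 genes were above 0, beside a median of 0.07 over all genes. Scaled, 5 of 9 genes were above 0, with Lrp2 and Dab2 at 0.12 and Cubn at 0.11, and Amn (-0.03) and Ocrl (-0.01) had turned below 0. A p that misses the threshold here does not show that the level was the same in both genotypes.

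With dapagliflozin in Akita mice, Lrp2, Cubn, Dab2, Clcn5, Lrpap1, Fcgrt and Rab11a had mean TPM levels above vehicle in both genotypes. Amn and Ocrl were above vehicle in wild type only, and none of the 9 genes passed the test. In wild type, Lrp2 was at 112, 116, 117, 99.8 and 165 TPM with the drug. All 5 of these values were above the Akita vehicle median, 4 of them within the range of that group and 1 above it. The log2 difference was 0.40 ± 0.24 (limma adjusted p = 0.579). Clcn5, at 7.41, 5.88, 6.56, 6.59 and 9.72 TPM, was also above the vehicle median in 5 of 5 libraries, against 1.94 to 7.64 TPM with vehicle, and differed by 0.53 ± 0.27 (limma adjusted p = 0.503). In the knockout, Lrp2 (0.42 ± 0.23) and Clcn5 (0.47 ± 0.25) were above the vehicle median in 6 of 6 libraries. Scaled, Lrp2 was at 0.12 and Clcn5 at 0.30 in wild type, and at 0.18 and 0.28 in the knockout.

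Averaged over both genotypes, dapagliflozin in Akita mice gave Clcn5 0.50 ± 0.18 (limma adjusted p = 0.151), Lrp2 0.41 ± 0.17 (adjusted p = 0.197), Lrpap1 0.34 ± 0.15 (adjusted p = 0.254) and Cubn 0.35 ± 0.17 (adjusted p = 0.277). The median of the 9 genes was 0.25 beside 0.17 over all genes, and 0.00 after median-of-ratios scaling. After that scaling Clcn5 was at 0.29, Lrp2 at 0.15 and Cubn at 0.09, whereas Amn was at -0.34 (limma adjusted p = 0.223). Without the 4 libraries with few genes, which all belong to the vehicle groups here, Clcn5 was at 0.20 and Lrp2 at 0.23. Amn and the receptors were thus on opposite sides of 0 after scaling. The late proximal tubule markers summed to 35.5 to 104.6 TPM with dapagliflozin in Akita wild type, against 19.1 to 60.3 TPM with vehicle, and their part in these values was not tested.

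In non-diabetic mice on the same drug, Amn, Ocrl and Rab11a had mean levels below vehicle in both genotypes. All the other genes, Lrp2 and Cubn among them, were below vehicle in wild type and above it in the knockout. In wild type, Lrp2 was at 56.8, 150, 98.7 and 91.4 TPM with dapagliflozin and Cubn at 17.5, 24.5, 18.5 and 15.5 TPM, and both differed by -0.41 from vehicle with an SE of 0.26 and 0.27 (limma adjusted p = 0.981 for both), and scaled by -0.22 and -0.23. The Lrp2 value moved to -0.63 without dapagliflozin replicate 3 (the library at 150 TPM), to -0.17 without dapagliflozin replicate 2 (56.8 TPM) and to -0.25 without vehicle replicate 3 (193 TPM). In the knockout, Lrp2 differed by 0.16 ± 0.24, Cubn by 0.19 ± 0.24 and Clcn5 by 0.35 ± 0.27, and Lrpap1 was above the vehicle median in 6 of 6 libraries at 0.21 ± 0.22. Scaled, these 4 were at 0.23, 0.26, 0.41 and 0.28. Amn differed by -0.19 in wild type and -0.13 in the knockout, Ocrl by -0.22 and -0.19 and Rab11a by -0.24 and -0.22. All 6 of these values were also below 0 when scaled. After rescaling to nuclear protein-coding genes instead, Amn in wild type was at 0.0113. Whether the 2 genotypes differ in this response was not tested. The interaction of dapagliflozin with diabetes in wild type was 0.81 ± 0.36 for Lrp2 (limma adjusted p = 0.414), 0.81 ± 0.36 for Cubn (adjusted p = 0.417) and 0.82 ± 0.40 for Clcn5 (adjusted p = 0.435), on a median of 0.32 over all genes. Scaled, it was 0.34 for Lrp2, 0.36 for Cubn and 0.43 for Clcn5. Without the non-diabetic dapagliflozin library at 150 TPM, the Lrp2 interaction was 1.03 (limma adjusted p = 0.141), and over the other libraries left out in turn its lowest value was 0.57. In the knockout the same interaction was 0.25 ± 0.33 for Lrp2 and 0.11 ± 0.34 for Cubn, and both were on the other side of 0 after scaling, at -0.06 and -0.19.

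Of the 10 comparisons between groups, semaglutide in Akita wild-type mice had the widest range of log2 differences among the 9 genes, from Amn at -0.28 to Cubn at 0.63. Cubn was at 29.8, 25.5, 18.5, 34.6 and 39.8 TPM, against 19.6, 10.97, 24.8, 24.8, 14.4 and 18.8 TPM with vehicle. Of the 5 treated libraries 4 lay above every vehicle library and 1 lay among them. The log2 difference was 0.63 ± 0.24 (limma adjusted p = 0.836).

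Lrp2 was at 116, 111, 95.7, 195 and 164 TPM with semaglutide, above the vehicle median in 5 of 5 libraries, and differed by 0.53 ± 0.24 (limma adjusted p = 0.845). Dab2, at 112, 90.6, 69.6, 101.1 and 140 TPM, differed by 0.54 ± 0.24 (limma adjusted p = 0.845). Amn, in contrast, was at 33.8, 21.3, 25.9, 28.6 and 19.2 TPM, below the vehicle median in 4 of 5 libraries, with a difference of -0.28 ± 0.21. Lrpap1 was at 0.06 ± 0.22 on TPM and at -0.14 scaled. The other 4 kept their sides of 0 when scaled, with Cubn at 0.44, Dab2 at 0.34, Lrp2 at 0.33 and Amn at -0.47 (limma adjusted p = 0.406, 0.624, 0.569 and 0.498).

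The sample titles carry numbers, called capture numbers here, and whether they mark an order or a batch is not known. They run from 88 to 99 for the semaglutide libraries and from 1 to 82 for Akita wild-type vehicle. Capture number and treatment therefore do not overlap. With capture number as a covariate Cubn was at 0.41 and Lrp2 at 0.44, and without the 4 libraries with few genes at 0.38 and 0.37. Late proximal tubule markers were at a median of 0.82 for semaglutide, beside 0.13 over all genes, and their part was not tested. Directly against dapagliflozin in the same mice, semaglutide gave 0.13 ± 0.25 for Lrp2 (95% interval -0.37 to 0.63), 0.23 ± 0.25 for Cubn (-0.28 to 0.75), -0.28 ± 0.22 for Amn and -0.34 ± 0.23 for Lrpap1 (limma adjusted p = 1.0 for all 4), so the drugs could not be told apart on these genes. Scaled, these were 0.22, 0.32, -0.20 and -0.25. The 2 drugs were given by different routes and share the vehicle samples.

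**Figure D2:**
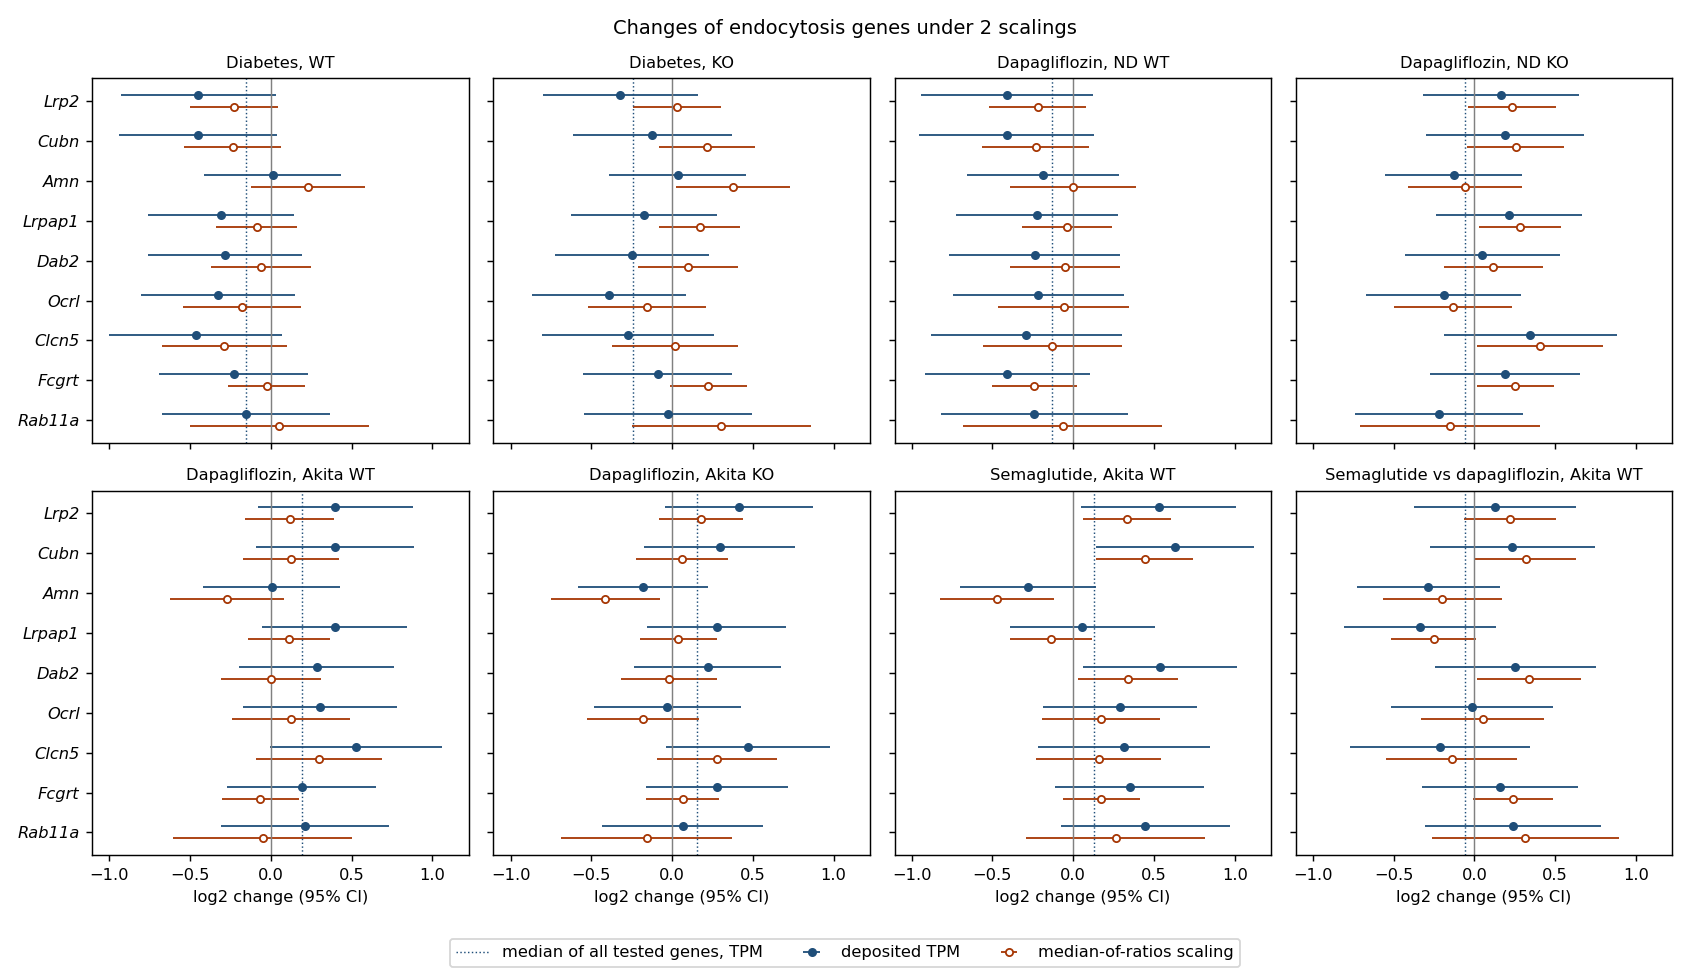
Log2 change of each endocytosis gene (vertical axis) in 8 comparisons, with its 95% interval from limma (horizontal axis). Filled points are deposited TPM, open points median-of-ratios scaling, and dotted lines the median of all tested genes on TPM; for semaglutide Cubn, Lrp2 and Dab2 lie above 0 and Amn below 0 under both scalings.

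Because a ratio of 2 genes in one library does not depend on how that library was scaled, members were also compared with each other and with apical transporters of the same tubule segment. Of 9 ratios, 7 were chosen after values had been seen, and the ratios of Lrp2 to Slc5a12 (a lactate transporter) and to Slc34a1 (a phosphate transporter) were added after the ratio to Slc5a2 was known. Each was compared in 10 comparisons by a two-sided exact permutation test, and p-values were adjusted over these 90 tests. None of the 90 passed an adjusted p of 0.05. With so few libraries a group, the exact permutation p cannot fall below a floor set by the group sizes. The smallest exact permutation p was 0.00433 (adjusted p = 0.0779), and every ratio whose groups did not overlap had this value. Even complete separation of the groups thus did not pass, so the absence of passing tests is no result about the ratios.

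The ratio of Lrp2 to Slc5a2 was 0.699, 0.731, 0.830, 0.640 and 0.747 in the non-diabetic wild-type vehicle libraries. In Akita wild-type vehicle it was 0.616, 0.406, 0.601, 0.396, 0.517 and 0.383, below every non-diabetic library. The log2 difference was -0.61 ± 0.14 (SE; exact permutation p = 0.00433, adjusted p = 0.0779). A ratio to Slc5a2 that was lower without overlap was found for 2.84% of all genes in this comparison, and for Lrp2 and Cubn among the 9 genes.

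With dapagliflozin in Akita wild type the ratio of Lrp2 to Slc5a2 was 0.858, 1.21, 0.765, 0.733 and 0.718, above every vehicle library. The log2 difference was 0.81 ± 0.19 (exact permutation p = 0.00433, adjusted p = 0.0779). Here 9.3% of all genes had a higher ratio to Slc5a2 without overlap, and 4 of the 9 genes did, namely Lrp2, Cubn, Dab2 and Clcn5. In the Akita knockout the difference was 0.61 ± 0.19 with overlap (exact permutation p = 0.00649, adjusted p = 0.0974). In the non-diabetic knockout it was 0.63 ± 0.12 without overlap (exact permutation p = 0.00433, adjusted p = 0.0779), as for 1.95% of all genes, and in the non-diabetic wild type -0.06 ± 0.19 (exact permutation p = 0.746). With semaglutide the ratio was 0.665, 0.811, 0.647, 1.11 and 0.658, again above every Akita vehicle library, with a difference of 0.67 ± 0.20 (exact permutation p = 0.00433, adjusted p = 0.0779) and a background of 2.51%. All Akita wild-type comparisons share the same 6 vehicle libraries.

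Slc5a2 is the gene of the protein by which the tubules were picked. Its own mean level differed between the groups compared, though their libraries overlapped in it. Without diabetes Slc5a2 averaged 177 TPM ± 53.1 (SD, n = 5) in wild-type vehicle. In the non-diabetic knockout it averaged 200 TPM ± 45.9 (n = 5) with vehicle and 152 TPM ± 58.1 (n = 6) with dapagliflozin. It averaged 193 TPM ± 30.6 (SD, n = 6) in Akita wild-type vehicle, 149 TPM ± 49.6 (n = 5) with dapagliflozin and 177 TPM ± 43.9 (n = 5) with semaglutide. For dapagliflozin in Akita mice over both genotypes, Slc5a2 was called lower after median-of-ratios scaling (-0.56, limma adjusted p = 0.0133) but not on TPM (-0.30, adjusted p = 0.390). Set against Slc5a12, Lrp2 was at -0.22 ± 0.21 for diabetes in wild type, 0.13 ± 0.36 for dapagliflozin in Akita wild type and 0.15 ± 0.23 for semaglutide (exact permutation p = 0.333, 0.714 and 0.532). Set against Slc34a1, it was at -0.43 ± 0.11 for diabetes in wild type without overlap (exact permutation p = 0.00433, adjusted p = 0.0779; 1.24% of all genes), 0.27 ± 0.14 for dapagliflozin in Akita wild type (p = 0.108) and 0.55 ± 0.15 for semaglutide (p = 0.013, adjusted p = 0.130). The value for megalin thus had the same sign against each transporter in these comparisons. Its size was smallest against Slc5a12, and whether the transporters differ in this was not tested. Without diabetes, the ratio of Lrp2 to Slc5a2 was lower in knockout than in wild type by a log2 difference of -0.20 ± 0.07 (exact permutation p = 0.0159, adjusted p = 0.130), and diabetes in the knockout gave -0.18 ± 0.12 (exact permutation p = 0.221).

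The ratio of Amn to Cubn, which form 1 receptor complex, was 1.14, 0.834, 1.40, 0.825 and 0.483 with semaglutide, against 1.99, 2.68, 1.29, 1.54, 1.56 and 1.47 in Akita wild-type vehicle. The groups overlapped in a single treated library, and the log2 difference was -0.95 ± 0.30 (exact permutation p = 0.00866, adjusted p = 0.111). Dapagliflozin in the Akita knockout gave -0.49 ± 0.17 (exact permutation p = 0.0216, adjusted p = 0.150), with 6 of 6 libraries below the vehicle median, and in the Akita wild type -0.41 ± 0.29 (p = 0.160). Diabetes in wild type gave 0.49 ± 0.24, with 6 of 6 libraries above the non-diabetic median (exact permutation p = 0.0779, adjusted p = 0.413). The chaperone to megalin ratio, Lrpap1 to Lrp2, was -0.48 ± 0.16 for semaglutide, with 5 of 5 libraries below the vehicle median (exact permutation p = 0.0173, adjusted p = 0.130). The group means of the log2 ratio of Lrp2 to Cubn differed by -0.20 to 0.11 over the 10 comparisons, while in single libraries the ratio ran from 3.25 to 8.26.

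**Figure D3:**
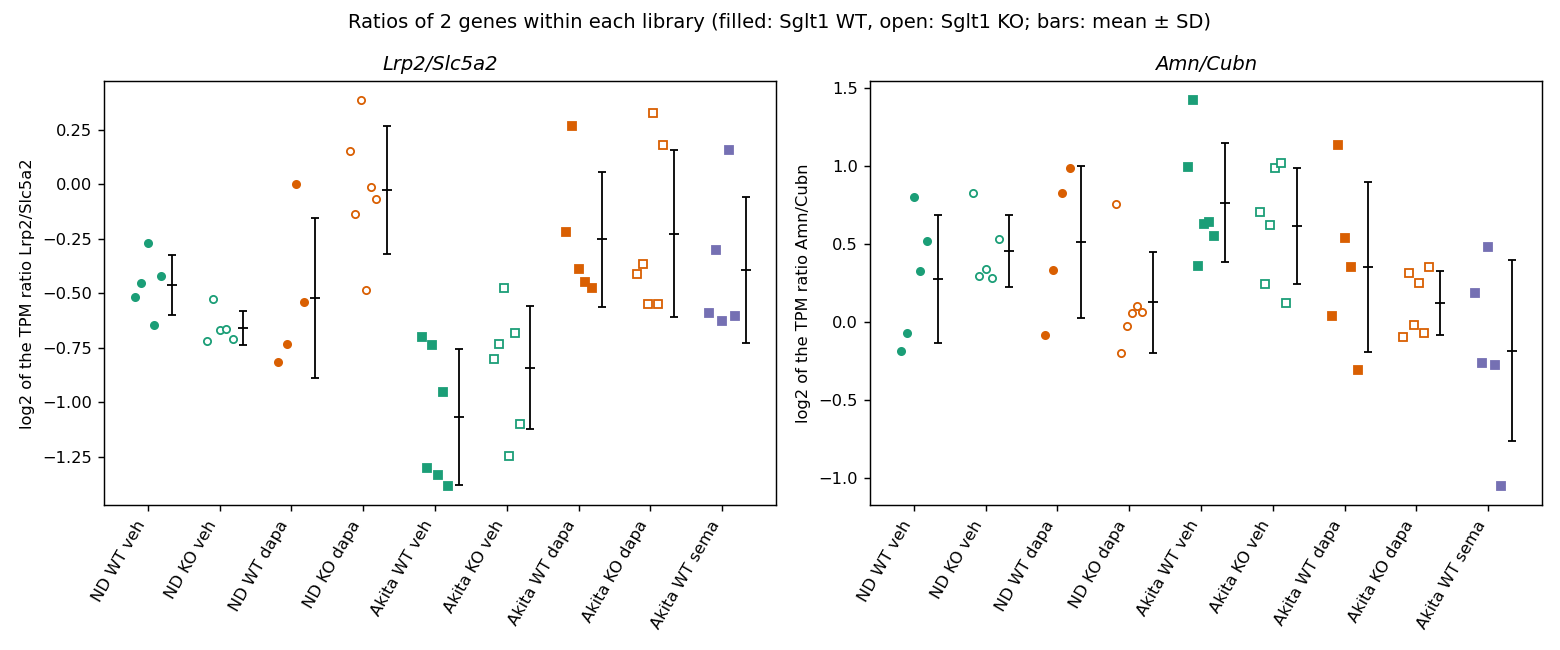
Log2 of the TPM ratio of Lrp2 to Slc5a2 (left) and of Amn to Cubn (right) in each library by group. Points are libraries, filled for Sglt1 wild type and open for knockout, and bars give the mean ± SD; Akita wild-type vehicle libraries have the lowest Lrp2 to Slc5a2 group mean, and semaglutide the lowest Amn to Cubn group mean.

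Across the 48 libraries, Lrp2 went with Dab2 (Pearson r = 0.86 on log2(TPM + 1)) and with Cubn (r = 0.83), and Cubn with Fcgrt (r = 0.84). Amn (r = 0.39) and Rab11a (r = 0.14) went little with Lrp2. After median-of-ratios scaling r was 0.60 for Lrp2 with Dab2, 0.51 for Lrp2 with Cubn and -0.13 for Lrp2 with Amn. These are descriptions over libraries that share groups and scaling. The level of Lrp2 also went with the share of TPM in nuclear protein-coding genes (r = 0.86) and with the number of genes detected (r = 0.77), whereas that of Rab11a did not (r = 0.14 and 0.23). Rab11a had the widest spread within groups after scaling, 0.47 on the log2 scale, against 0.18 for Fcgrt, 0.20 for Lrpap1 and 0.22 for Lrp2, and a median of 0.28 over protein-coding genes at 10 TPM or more.

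The 5 genes most like Lrp2 over the 48 libraries, among protein-coding genes with a mean of at least 10 TPM, were Cfb (r = 0.92), Cyp2j5 (0.92), Abca3 (0.90), Eef2 (0.89) and Slc6a20b (0.89), on a median of 0.61 over all genes compared. Those most like Cubn were Fmo2 (r = 0.88), the water channel Aqp1 (0.87), Cfb (0.87), the amino acid transporter subunit Slc3a1 (0.85) and March6 (0.85), on a median of 0.56. After median-of-ratios scaling Cfb and Cyp2j5 were still the 2 closest to Lrp2 (0.75 and 0.70, on a median of 0.05), and Fmo2 and Aqp1 the 2 closest to Cubn (0.72 and 0.64, on a median of 0.00).

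**Figure D4:**
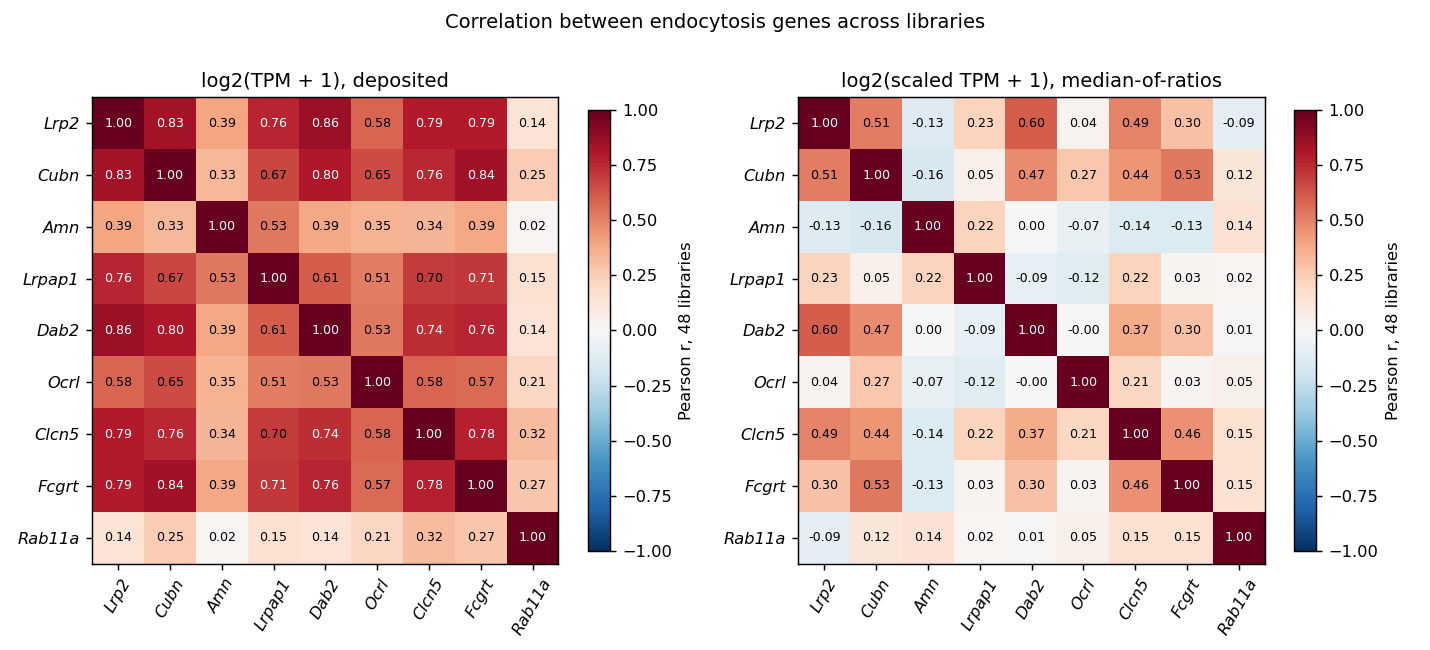
Pearson correlation between each pair of endocytosis genes over 48 libraries on log2(TPM + 1), from deposited TPM (left) and after median-of-ratios scaling (right); colour and number give r. Lrp2, Cubn, Dab2, Clcn5 and Fcgrt form the block of high values on the left, Amn and Rab11a stand apart; on the right r is lower for 35 of the 36 pairs, the exception being Amn with Rab11a (0.02 and 0.14).

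The wider pathway was read from 8 further lists, covering the clathrin coat and adaptors, receptor partners, early and recycling endosomes, endosomal acidification, lysosomal processing, the LDL receptor family, other apical uptake receptors and filtered ligands, with 109 tested genes. For diabetes averaged over genotypes 1 of these 109 was called higher and 2 lower, where 0.557% of all genes were called. Apob, the apolipoprotein of LDL and chylomicrons, rose by 1.65 ± 0.27 (log2, limma adjusted p = 0.000854), from a low level of 4.31 TPM on average over all libraries. Cd36, a fatty acid uptake receptor, fell by 0.87 (adjusted p = 0.0422) and Apoh, a plasma lipid-binding glycoprotein, by 0.77 (adjusted p = 0.0290). After median-of-ratios scaling Apob was called at 1.86, but Cd36 (-0.59) and Apoh (-0.63) were not. In wild type alone Apob rose by 1.97 ± 0.38 (limma adjusted p = 0.0242).

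For dapagliflozin in Akita mice averaged over genotypes, 1 of the 109 genes was called higher and none lower, a share near the 0.816% of all genes called. Lpl, lipoprotein lipase, rose by 0.93 ± 0.22 (limma adjusted p = 0.0319), and was at 0.69 and not called after median-of-ratios scaling. Of the 109 genes 95 had values above 0 there and 98 had values below 0 for diabetes, each on the side of the shift of all genes. In the acidification list, made of V-ATPase subunits and ion exchangers, 16 of 16 genes had values above 0 for dapagliflozin and 16 of 16 below 0 for diabetes, with medians of 0.28 and -0.29 on TPM and of 0.07 and -0.04 after scaling. For semaglutide none of the 109 genes was called, and 7 had an unadjusted p under 0.05 in limma, a share near the 5.82% of all genes. Early and recycling endosome genes were at a median of 0.27 on TPM and 0.12 after scaling, and other apical uptake receptors at -0.16 and -0.27.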

How the data were processed

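The deposited table gives 1 TPM value per gene and library for 48 of the 54 labelled samples (the other 6 were not analysed here). Per the submitters' processing notes, the authors used Salmon, MultiQC 1.8 and build GRCm38. The name of the table states that outliers were removed, and the sources used here do not give the rule. Deposited TPM values hold no sequencing depth, so depth and counting error are unknown, and 5.24% of tested values were 0. Libraries were made from 0.5 ng of total RNA, per the labels' protocols, and TPM therefore also counts non-coding RNA.

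Rows named by Ensembl identifiers were given symbols where the reference allowed (12973 of 13233). Genes with at least 1 TPM in at least 5 samples were tested with limma 3.58.1 (statmod 1.5.0, R 4.3.3; trend and robust fit) on log2(TPM + 1), so fold changes are understated for low genes. All 9 groups shared 1 estimate of spread with 39 residual degrees of freedom. The 16 comparisons were 10 between groups, 3 averages and 3 interactions. Scripts were tested on simulated data. Ratios within a library were compared by exact permutation. Wherever nuclear protein-coding genes are named, Lars2 was left out of their sum. The alternatives were median-of-ratios scaling (size factors 0.623 to 1.55), rescaling to nuclear protein-coding genes, a pseudocount of 0.1, no filter, a stricter filter of 5 TPM in 5 samples, only the groups compared, capture number or genes detected as a covariate, and leaving out 4 libraries with few genes or each library in turn.

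The 9 genes, the lists and the ratios were chosen with earlier results of these data known. All 9 genes were described in every comparison, and of the other pathway lists the called genes, at most 5 a list. For likeness, the 5 protein-coding genes with the highest correlation were named among those with a mean of at least 10 TPM.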

Additional observations from a re-analysis of the deposited data

Results flagged for a closer look

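A single library stood far from the rest of its group in 5 of 99 checks of a gene or ratio within a group, about what chance gives at 1 in 20. Lrp2 was at 165 TPM in Akita wild-type dapagliflozin replicate 6, above the other 4 libraries of that group. Amn was at 16.5 TPM in non-diabetic wild-type dapagliflozin replicate 2, below the other 3. Lrpap1 was at 107.6 TPM in non-diabetic knockout vehicle replicate 5, above the other 4. The log2 ratio of Amn to Cubn was 0.755 in non-diabetic knockout dapagliflozin replicate 1, above the others of its group, and the log2 ratio of Lrp2 to Slc5a2 was -0.524 in non-diabetic knockout vehicle replicate 2.

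Opposite directions were seen in 1 of 44 checks. In wild type, every Akita library on dapagliflozin had Cubn above the Akita vehicle mean and every non-diabetic library on dapagliflozin had it below the non-diabetic vehicle mean, and the 2 mean differences from vehicle were 12.6 TPM apart. The test of this difference by limma gave a log2 interaction of 0.81 (adjusted p = 0.417), which did not pass, and 0.36 after median-of-ratios scaling.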

How the results depend on the processing

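The 9 genes were called in none of the 16 comparisons under any of the 9 other settings or with any library left out, over 3773 limma tests of the 9 genes, and the smallest adjusted p was 0.0807 (Clcn5, dapagliflozin in Akita mice averaged over genotypes, without Akita wild-type vehicle replicate 1). Since most comparisons call almost no gene, this says nothing about stability, and the sign of many changes depended on scaling. No other sign was seen with no filter, a pseudocount of 0.1, the stricter filter (which gives no value for Ocrl) or only the groups compared. The cause was not tested for any of the values below. Precision is limited by 4 to 6 libraries a group, by the unknown depth and by libraries that share a vehicle group. No paired analysis was possible because the labels pair no samples. They give only the number in each sample title, called capture number here. The replicate numbers used here were given in accession order to name libraries.

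After median-of-ratios scaling, 37 of the 144 log2 changes had the opposite sign. Rab11a was at 0.0516 for diabetes in wild type. Lrp2 was at 0.0282, Cubn at 0.22, Dab2 at 0.10, Clcn5 at 0.0178, Lrpap1 at 0.17, Fcgrt at 0.22 and Rab11a at 0.30 for diabetes in knockout. Lrp2 was at -0.13 and Amn at -0.0545 for Sglt1 knockout in non-diabetic. Amn was at -0.27, Fcgrt at -0.0653 and Rab11a at -0.0503 for dapagliflozin in Akita wild type. Dab2 was at -0.0186 and Rab11a at -0.16 for dapagliflozin in Akita knockout. Lrpap1 was at -0.14 for semaglutide in Akita wild type. Ocrl was at 0.0510 for semaglutide against dapagliflozin in Akita wild type. Dab2 was at 0.0191, Lrpap1 at 0.0417, Fcgrt at 0.0983 and Rab11a at 0.18 for diabetes averaged over genotypes. Dab2 was at -0.00922, Ocrl at -0.0287, Fcgrt at -0.000168 and Rab11a at -0.10 for dapagliflozin in Akita averaged over genotypes. Amn was at -0.0315 and Ocrl at -0.00988 for Sglt1 knockout averaged over 4 backgrounds. Ocrl was at 0.0255 for diabetes by genotype interaction. Amn was at -0.27 for dapagliflozin by diabetes interaction in wild type. Lrp2 was at -0.0568, Cubn at -0.19, Dab2 at -0.14, Clcn5 at -0.13, Ocrl at -0.0469, Lrpap1 at -0.24, Fcgrt at -0.19 and Rab11a at -0.00685 for dapagliflozin by diabetes interaction in knockout. After rescaling to nuclear protein-coding genes, 38 of the 144 log2 changes had the opposite sign. Fcgrt was at 0.0107 and Rab11a at 0.0902 for diabetes in wild type. Cubn was at 0.19, Dab2 at 0.0721, Lrpap1 at 0.14, Fcgrt at 0.20 and Rab11a at 0.28 for diabetes in knockout. Lrp2 was at -0.0831 and Amn at -0.00624 for Sglt1 knockout in non-diabetic. Fcgrt was at -0.000442 for Sglt1 knockout in Akita. Amn was at 0.0113 for dapagliflozin in non-diabetic wild type. Amn was at -0.30, Dab2 at -0.0258, Fcgrt at -0.0894 and Rab11a at -0.0765 for dapagliflozin in Akita wild type. Dab2 was at -0.0395 and Rab11a at -0.18 for dapagliflozin in Akita knockout. Lrpap1 was at -0.13 for semaglutide in Akita wild type. Ocrl was at 0.0804 for semaglutide against dapagliflozin in Akita wild type. Dab2 was at 0.0249, Lrpap1 at 0.0474, Fcgrt at 0.10 and Rab11a at 0.18 for diabetes averaged over genotypes. Dab2 was at -0.0327, Ocrl at -0.0455, Fcgrt at -0.0221 and Rab11a at -0.13 for dapagliflozin in Akita averaged over genotypes. Amn was at -0.0300 and Ocrl at -0.00860 for Sglt1 knockout averaged over 4 backgrounds. Amn was at -0.31 and Rab11a at -0.0258 for dapagliflozin by diabetes interaction in wild type. Lrp2 was at -0.0338, Cubn at -0.17, Dab2 at -0.11, Clcn5 at -0.11, Ocrl at -0.0310, Lrpap1 at -0.22 and Fcgrt at -0.17 for dapagliflozin by diabetes interaction in knockout. With the number of genes detected as a covariate, 28 of the 144 log2 changes had the opposite sign. Fcgrt was at 0.00456 for diabetes in wild type. Lrp2 was at 0.0304, Cubn at 0.24, Dab2 at 0.0743, Clcn5 at 0.0703, Lrpap1 at 0.15, Fcgrt at 0.28 and Rab11a at 0.0964 for diabetes in knockout. Lrp2 was at -0.14 and Amn at -0.00660 for Sglt1 knockout in non-diabetic. Amn was at -0.15 and Fcgrt at -0.0803 for dapagliflozin in Akita wild type. Lrpap1 was at -0.13 for semaglutide in Akita wild type. Ocrl was at 0.0323 for semaglutide against dapagliflozin in Akita wild type. Cubn was at 0.00981, Lrpap1 at 0.0229, Fcgrt at 0.14 and Rab11a at 0.00878 for diabetes averaged over genotypes. Ocrl was at -0.0414 for dapagliflozin in Akita averaged over genotypes. Ocrl was at 0.0469 for diabetes by genotype interaction. Amn was at -0.0583 for dapagliflozin by diabetes interaction in wild type. Lrp2 was at -0.0351, Cubn at -0.19, Dab2 at -0.0914, Clcn5 at -0.15, Ocrl at -0.0768, Lrpap1 at -0.20 and Fcgrt at -0.22 for dapagliflozin by diabetes interaction in knockout. With capture number as a covariate, 4 of the 144 log2 changes had the opposite sign. Amn was at -0.0107 for dapagliflozin in Akita wild type. Lrpap1 was at -0.0670 for semaglutide in Akita wild type. Amn was at -0.0166 and Dab2 at -0.0382 for diabetes by genotype interaction. Without the libraries with fewer than 9000 genes, 25 of the 144 log2 changes had the opposite sign. Fcgrt was at 0.0123 and Rab11a at 0.17 for diabetes in wild type. Cubn was at 0.0636, Clcn5 at 0.00883, Lrpap1 at 0.0575, Fcgrt at 0.18 and Rab11a at 0.0477 for diabetes in knockout. Amn was at -0.12, Fcgrt at -0.0503 and Rab11a at -0.11 for dapagliflozin in Akita wild type. Rab11a was at -0.00565 for dapagliflozin in Akita knockout. Lrpap1 was at -0.20 for semaglutide in Akita wild type. Lrpap1 was at 0.000246, Fcgrt at 0.0957 and Rab11a at 0.11 for diabetes averaged over genotypes. Ocrl was at -0.0749, Fcgrt at -0.0195 and Rab11a at -0.0576 for dapagliflozin in Akita averaged over genotypes. Rab11a was at -0.12 for diabetes by genotype interaction. Cubn was at -0.0776, Dab2 at -0.0147, Clcn5 at -0.16, Ocrl at -0.0757, Lrpap1 at -0.17 and Fcgrt at -0.18 for dapagliflozin by diabetes interaction in knockout. Without the libraries with fewer than 9000 genes, 3 of the 90 ratio differences had the opposite sign. Amn to Cubn was at 0.00635 for Sglt1 knockout in Akita. Lrp2 to Cubn was at -0.0858 for diabetes in wild type. Lrp2 to Cubn was at 0.0899 for dapagliflozin in Akita wild type. With a pseudocount of 1, 2 of the 90 ratio differences had the opposite sign. Lrp2 to Cubn was at 0.00170 for dapagliflozin in Akita wild type. Clcn5 to Ocrl was at 0.0263 for semaglutide in Akita wild type.

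Leaving out 1 library at a time turned the sign of 43 of the 144 log2 changes at least once. Amn ranged from -0.0804 to 0.10 for diabetes in wild type. Cubn ranged from -0.35 to 0.0397, Amn from -0.11 to 0.16, Fcgrt from -0.28 to 0.0338 and Rab11a from -0.15 to 0.10 for diabetes in knockout. Lrp2 ranged from -0.12 to 0.16, Cubn from -0.25 to 0.14, Amn from -0.0437 to 0.22, Dab2 from -0.0214 to 0.22, Clcn5 from -0.30 to 0.0263 and Fcgrt from -0.23 to 0.00128 for Sglt1 knockout in non-diabetic. Lrp2 ranged from -0.0173 to 0.25, Amn from -0.0327 to 0.21, Clcn5 from -0.16 to 0.16, Ocrl from -0.0276 to 0.22, Lrpap1 from -0.19 to 0.0684, Fcgrt from -0.16 to 0.15 and Rab11a from -0.16 to 0.0945 for Sglt1 knockout in Akita. Amn ranged from -0.28 to 0.0371 and Dab2 from -0.51 to 0.0765 for dapagliflozin in non-diabetic wild type. Cubn ranged from -0.0445 to 0.35 and Dab2 from -0.0507 to 0.21 for dapagliflozin in non-diabetic knockout. Amn ranged from -0.13 to 0.0811 for dapagliflozin in Akita wild type. Ocrl ranged from -0.13 to 0.11 and Rab11a from -0.0570 to 0.14 for dapagliflozin in Akita knockout. Lrpap1 ranged from -0.0710 to 0.16 for semaglutide in Akita wild type. Lrp2 ranged from -0.0112 to 0.24 and Ocrl from -0.0837 to 0.0822 for semaglutide against dapagliflozin in Akita wild type. Amn ranged from -0.0503 to 0.0836 for diabetes averaged over genotypes. Lrpap1 ranged from -0.0586 to 0.0203 for Sglt1 knockout averaged over 4 backgrounds. Lrp2 ranged from -0.0261 to 0.25, Amn from -0.12 to 0.14, Dab2 from -0.0507 to 0.20, Ocrl from -0.21 to 0.0973, Lrpap1 from -0.0251 to 0.28, Fcgrt from -0.0463 to 0.26 and Rab11a from -0.000252 to 0.26 for diabetes by genotype interaction. Amn ranged from -0.0318 to 0.29 for dapagliflozin by diabetes interaction in wild type. Cubn ranged from -0.0537 to 0.34, Amn from -0.17 to 0.0944, Clcn5 from -0.0101 to 0.31, Lrpap1 from -0.0846 to 0.22 and Fcgrt from -0.0332 to 0.28 for dapagliflozin by diabetes interaction in knockout. Among the 90 ratio differences it turned the sign of 23. Lrp2 to Cubn ranged from -0.0811 to 0.13 and Clcn5 to Ocrl from -0.28 to 0.0396 for diabetes in wild type. Lrp2 to Cubn ranged from -0.0620 to 0.18 and Fcgrt to B2m from -0.62 to 0.0659 for Sglt1 knockout in non-diabetic. Lrp2 to Cubn ranged from -0.0790 to 0.23, Clcn5 to Ocrl from -0.26 to 0.30 and Lrp2 to Slc5a2 from -0.24 to 0.0360 for dapagliflozin in non-diabetic wild type. Lrp2 to Cubn ranged from -0.12 to 0.13, Lrpap1 to Lrp2 from -0.0186 to 0.0993, Fcgrt to B2m from -0.55 to 0.0165 and Lrp2 to Slc5a12 from -0.0587 to 0.16 for dapagliflozin in non-diabetic knockout. Lrp2 to Cubn ranged from -0.13 to 0.0852, Lrpap1 to Lrp2 from -0.11 to 0.13 and Lrp2 to Slc5a12 from -0.15 to 0.28 for dapagliflozin in Akita wild type. Dab2 to Lrp2 ranged from -0.0396 to 0.17 for diabetes in knockout. Dab2 to Lrp2 ranged from -0.0167 to 0.14, Clcn5 to Ocrl from -0.22 to 0.0509, Fcgrt to B2m from -0.27 to 0.0376 and Lrp2 to Slc5a12 from -0.18 to 0.0203 for Sglt1 knockout in Akita. Dab2 to Lrp2 ranged from -0.0779 to 0.15 and Clcn5 to Ocrl from -0.28 to 0.13 for semaglutide in Akita wild type. Lrp2 to Slc5a12 ranged from -0.0290 to 0.25 for dapagliflozin in Akita knockout. Lrp2 to Slc5a12 ranged from -0.13 to 0.30 for semaglutide against dapagliflozin in Akita wild type.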
